A study of Mus musculus with 12 samples.

Results

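The collagen chains of mouse were described here in C2C12, an established line of mouse myoblasts whose cells leave the cell cycle and fuse into myotubes when serum is withdrawn. The members are the 44 rows of the deposited gene count table, of 21232 in all, whose symbol consists of Col, a type number, the letter a and a chain number. Of these, 38 had 10 or more counts summed over the 12 libraries and 30 passed the filter on low counts that decided which genes were tested. RNA was sequenced in 4 groups of 3 libraries, with replicates lettered A, B and C. TNF cells were differentiated for 48 h in medium with horse serum containing the inflammatory cytokine TNF alpha at 10 ng/ml. Fbxl2 siRNA cells were examined at 48 h of differentiation after silencing of Fbxl2, the gene of a substrate-binding F-box subunit of SCF ubiquitin ligases. Control cells were examined at 48 h of differentiation, and proliferation cells at 0 h, as dividing myoblasts in growth medium with fetal bovine serum. All 4 groups are the same immortal line, of low passage and with the strain label C57BL/6, grown without the other cells of a muscle. No label ties the letters to separate cultures, so the p-values reflect library-to-library spread alone, possibly of technical origin. Whether TNF or control cells received a non-targeting siRNA is not stated. Effects of transfection and of the loss of Fbxl2 therefore cannot be told apart, and changes with the siRNA are not assigned to either. The series title asks how TNF acts on myogenesis through the Fbxl2 promoter, and the comparisons set each treatment against control cells and control cells against dividing myoblasts. That last comparison is called differentiation below. It also spans 48 h in culture and a change of medium, and these cannot be told apart.

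Collagens are secreted proteins of 3 chains wound into a triple helix. Fibrillar types (I, III, V, XI) form the fibrils of connective tissue, type IV forms the sheet of basement membranes, type VI forms beaded filaments beside cells, and other types sit on fibrils, span the cell membrane or anchor epithelium. Chains are hydroxylated, glycosylated and folded in the endoplasmic reticulum, trimmed on secretion and cross-linked outside the cell. In skeletal muscle most fibrillar collagen comes from fibroblasts, while myogenic cells are also known to make basement membrane collagen and collagen VI loss causes a myopathy in humans.

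Libraries held 26416978 to 32917763 counts, and levels are given as CPM, counts divided by the TMM-scaled library total and given per 1e6, where 3 counts correspond to 0.0899 to 0.113 CPM. Fbxl2 had 28.9 ± 1.05 CPM in TNF, 22.2 ± 1.52 in Fbxl2 siRNA, 32.9 ± 1.30 in control and 25.95 ± 1.71 in proliferation libraries (mean ± SD, n = 3 each). It was lower than in control cells with TNF (log2 -0.19, SE 0.062, adjusted p = 0.0137) and with the siRNA (log2 -0.57, SE 0.064, adjusted p = 1.67e-07), by edgeR's quasi-likelihood test with Benjamini-Hochberg adjustment over 12736 genes, which is the test behind every adjusted p here. Values marked log2 are log2 fold changes with their standard error (SE), of a treatment over control, of control over proliferation, or of TNF over Fbxl2 siRNA. The library labels were also checked by muscle genes. Myod1 and Des, which mark myoblasts, were present in every group, Myod1 at 44.6 ± 2.01 CPM in TNF, 55.1 ± 2.73 in Fbxl2 siRNA, 97.2 ± 3.55 in control and 74.7 ± 1.59 in proliferation libraries, and Des at 727 ± 28.03 CPM in TNF, 1276 ± 19.6 in Fbxl2 siRNA, 1201 ± 22.6 in control and 1095 ± 65.8 in proliferation libraries. Myog, the differentiation factor, stood at 79.9 ± 10.6 CPM in TNF, 104 ± 23.9 in Fbxl2 siRNA, 302 ± 21.97 in control and 22.5 ± 2.31 in proliferation libraries. Myh3, embryonic myosin, stood at 153 ± 35.9 CPM in TNF, 238 ± 64.5 in Fbxl2 siRNA, 737 ± 88.2 in control and 6.32 ± 1.08 in proliferation libraries.

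Markers of cell types that make collagen also differed between groups, and their part in the collagen results was not tested. Of 8 fibroblast markers, 6 passed the filter, with a summed level of 274 to 282 CPM in TNF, 418 to 492 in Fbxl2 siRNA, 568 to 604 in control and 54.2 to 66.2 in proliferation libraries. Dcn, at 119 ± 4.88 CPM in TNF, 394 ± 36.1 in Fbxl2 siRNA, 488 ± 16.1 in control and 29.3 ± 4.40 in proliferation libraries, made up most of the sum in Fbxl2 siRNA and control libraries, and the markers did not move alike. With TNF, Pdgfra (log2 1.04, SE 0.071, adjusted p = 9.25e-11) and Pdgfrl (log2 0.77, SE 0.048, adjusted p = 2.28e-11) rose over control, while Dcn (log2 -2.04, SE 0.08, adjusted p = 1.74e-12), Lum (log2 -3.89, SE 0.40, adjusted p = 4.86e-08) and Fap (log2 -2.74, SE 0.31, adjusted p = 1.96e-07) fell. With the siRNA, Dpt (log2 1.18, SE 0.098, adjusted p = 1.99e-09) and Lum (log2 0.78, SE 0.21, adjusted p = 0.00285) rose, while Pdgfrl (log2 -1.21, SE 0.052, adjusted p = 1.05e-13), Dcn (log2 -0.31, SE 0.076, adjusted p = 0.00195) and Fap (log2 -0.59, SE 0.23, adjusted p = 0.0312) fell. The defining marker Thy1 had 0 counts in TNF, control and proliferation libraries and Tcf21 had 0 in TNF, Fbxl2 siRNA and proliferation libraries. Of 5 smooth muscle or myofibroblast markers, 4 passed, and none was at 0 in a group. The summed level was 4112 to 4252, 1934 to 2066, 3505 to 3685 and 752 to 757 CPM in the same order of groups. Most of it was Acta2, at 3409 ± 47.2, 1697 ± 62.6, 2994 ± 74.4 and 568 ± 5.06 CPM in that order. Tagln and Cnn1 were also lower in Fbxl2 siRNA than in control libraries. Smtn was not, at 99.7 to 103.2 CPM in Fbxl2 siRNA and 94.4 to 97.3 in control libraries. Myh11 did not pass, with 33 counts over the 12 libraries. Of 6 chondrocyte markers, 2 passed, with a summed level of 32.6 to 35.6 CPM in TNF, 80.3 to 84.2 in Fbxl2 siRNA, 63.9 to 67.6 in control and 78.9 to 82.2 in proliferation libraries. Nearly all of it was Sox9, which fell with TNF (log2 -0.96, SE 0.049, adjusted p = 8.7e-13), rose with the siRNA (log2 0.30, SE 0.047, adjusted p = 9.42e-06) and fell on differentiation (log2 -0.28, SE 0.047, adjusted p = 1.45e-05). Acan and Matn1 were at 0 counts in every group. In bulk RNA, fewer cells of a type and less RNA per cell cannot be told apart.

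Collagen RNA as a whole was lowest before differentiation. The chains took 1.52% to 1.63% of all counts in TNF libraries, 1.65% to 1.76% in Fbxl2 siRNA, 1.77% to 1.79% in control and 0.738% to 0.931% in proliferation libraries. Their summed level was 16129 ± 699 in TNF, 17160.2 ± 557 in Fbxl2 siRNA, 17441 ± 121 in control and 8357 ± 919 in proliferation libraries, in CPM. Neither treatment moved that sum as far as differentiation did, while single chains moved by much more than the sum.

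**Figure D1:**
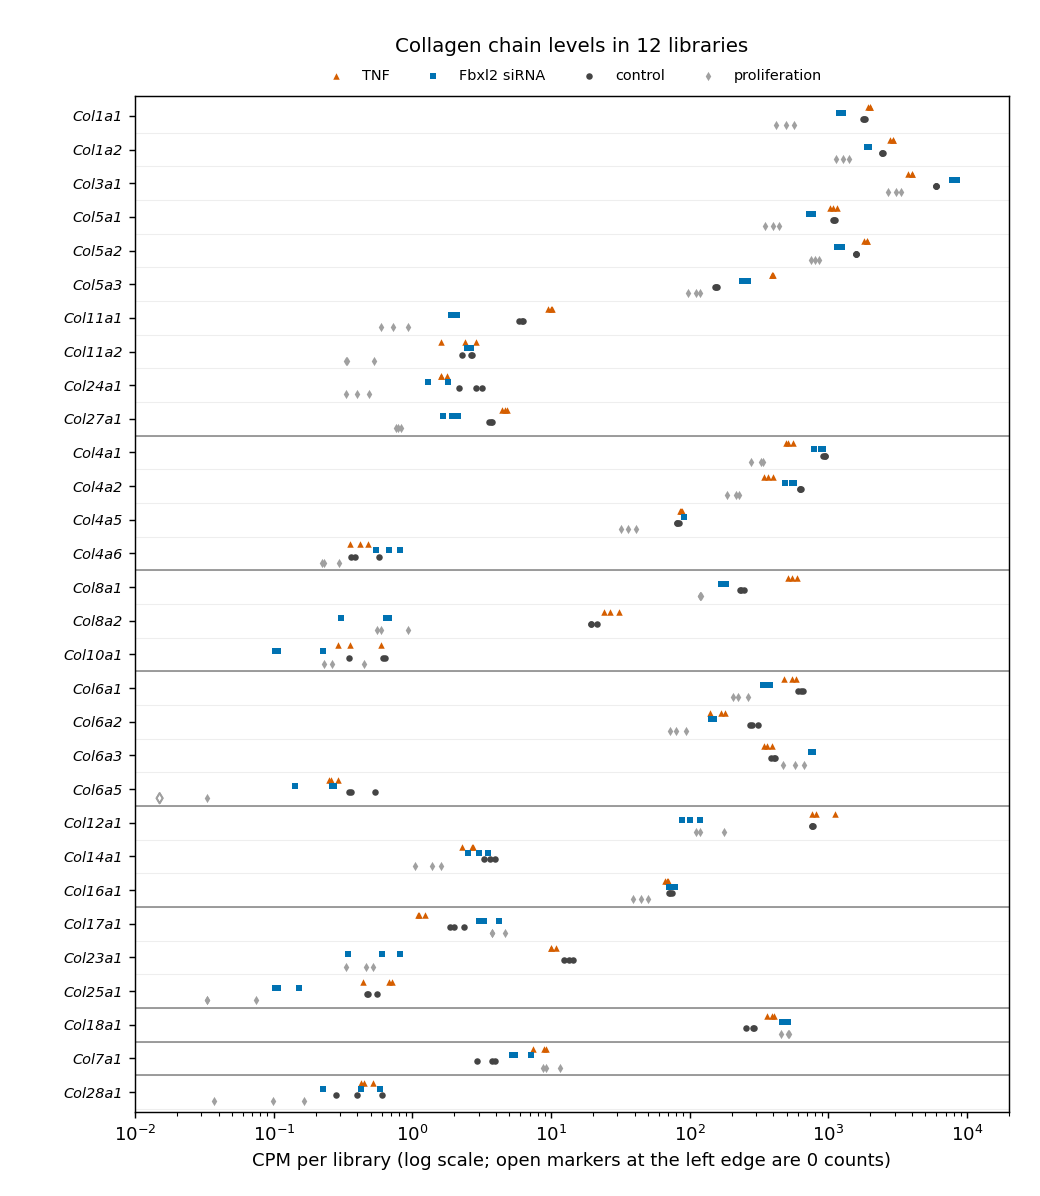
Levels of the 30 tested chains, one row a chain, as CPM per library on a log axis. Triangles are TNF, squares Fbxl2 siRNA, circles control and diamonds proliferation libraries, and open markers are 0 counts. Grey lines divide the families. Most diamonds lie left of the other symbols, and the squares of Col8a2, Col23a1 and Col12a1 lie beside the diamonds.

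Most chains were higher in control than in proliferation libraries. In control over proliferation, 25 of the 30 tested chains were called higher at an adjusted p under 0.05 and 4 lower, against 38.4% of all tested genes called higher and 38.9% lower. The median log2 fold change was 1.47 over the 30 chains and -0.00084 over all tested genes. All 10 tested fibrillar chains, all 4 type IV chains and all 3 fibril-associated chains rose. Col6a3, Col7a1, Col17a1 and Col18a1 fell. Col10a1 was the chain not called. The 25 include Col6a5, which passed the filter only through its control libraries, and Col25a1, which passed only through TNF and control libraries. Their calls were thus favoured by the filter.

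TNF changed as many chains in each direction. Over control, 9 of 30 chains were called higher and 9 lower, against a background of 31.0% and 23.6% of all tested genes, and the median log2 fold change was -0.044 over the chains and 0.029 over all genes. Chains that rose included Col5a3, Col7a1, Col8a1 and Col11a1, and those that fell included Col3a1, Col4a1, Col4a2 and Col6a2. The share called higher lay close to the background.

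More chains were called lower than higher with the Fbxl2 siRNA. Over control, 16 of 30 chains were called lower and 7 higher, against 29.8% and 34.1% of all tested genes, with a median log2 fold change of -0.36 over the chains and 0.026 over all genes. The falls in Col8a2, Col23a1 and Col12a1 brought their libraries down to overlap the proliferation libraries. Col3a1, Col4a5, Col5a3, Col6a3, Col7a1, Col17a1 and Col18a1 rose. The 16 include Col10a1 and Col25a1, which passed the filter without the help of any Fbxl2 siRNA library. Those calls were thus favoured by the filter.

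TNF and Fbxl2 siRNA cells shared their control libraries, so the treatments were also set against each other directly. In TNF over Fbxl2 siRNA, 15 chains were called higher and 7 lower, against 29.9% and 30.6% of all tested genes. The median log2 fold change was 0.37 over the chains and -0.0078 over all genes. Among the 15 are again Col10a1 and Col25a1, whose calls the filter favoured. By group mean, 11 of the 30 chains were highest in TNF, 6 in Fbxl2 siRNA, 10 in control and 3 in proliferation libraries, and 23 were lowest in proliferation libraries. The same counts were not made over all tested genes, so they describe these chains and show nothing particular to them.

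**Figure D2:**
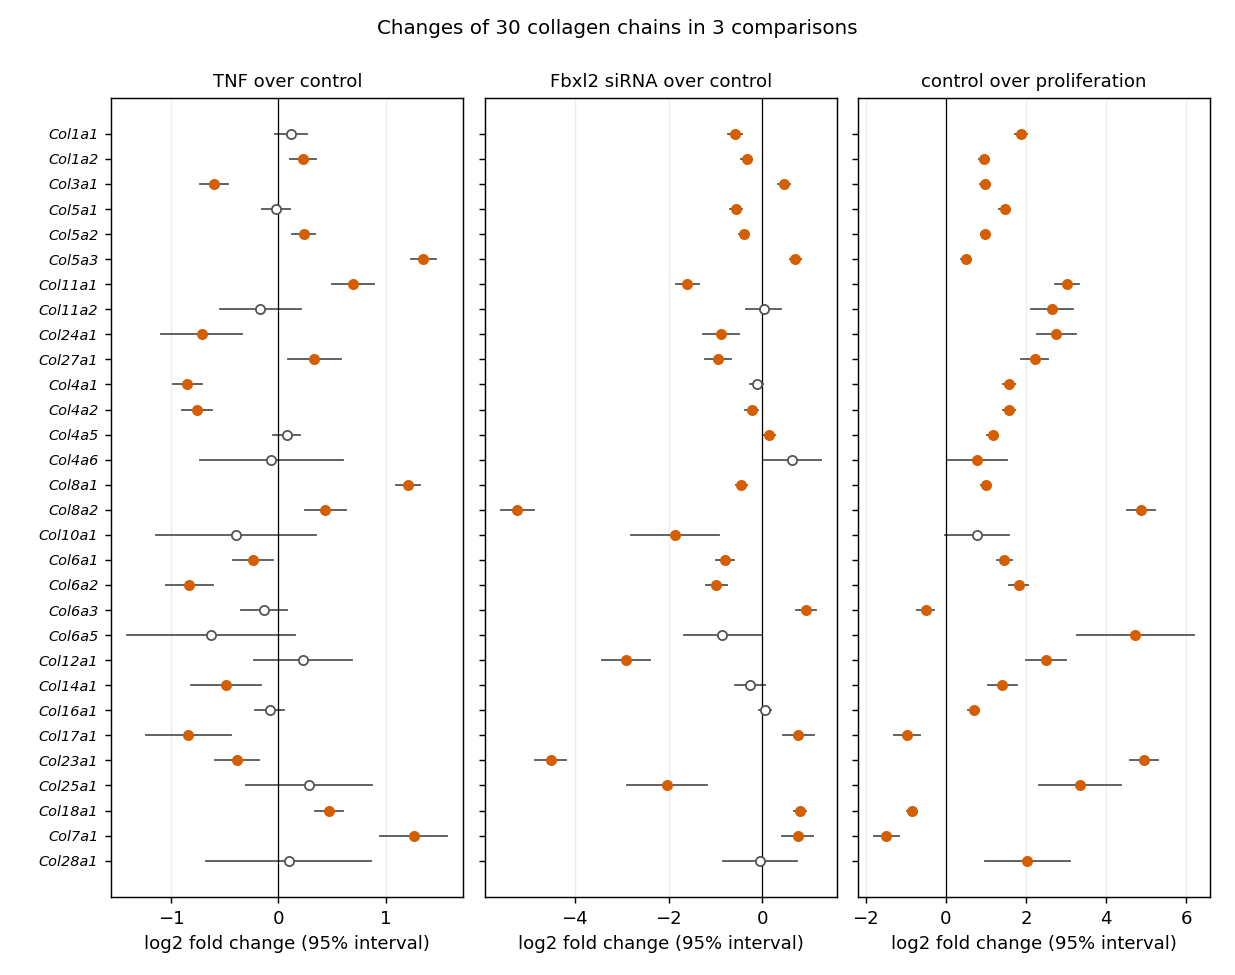
Log2 fold changes of the 30 tested chains in TNF over control, Fbxl2 siRNA over control and control over proliferation, with 95% intervals. Filled points were called at an adjusted p under 0.05 and the panels have their own axes. Most points of the last panel lie right of 0, and those of the first panel lie on both sides.

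Of the fibril formers, Col1a1 and Col1a2 encode the chains of type I collagen, the main protein of tendon and bone. Col1a1 had 2007, 1914 and 1993 CPM in the TNF libraries, and 1267, 1188 and 1190.1 CPM in the Fbxl2 siRNA libraries. It had 1819, 1840.3 and 1781 CPM in the control libraries, and 562, 421 and 497 CPM in the proliferation libraries. Every group stood apart from the other groups, with TNF highest and proliferation lowest. Fbxl2 siRNA lowered Col1a1 (log2 -0.58, SE 0.071, adjusted p = 9.65e-07) over control and differentiation raised it (log2 1.88, SE 0.073, adjusted p = 2.59e-14). With TNF the log2 fold change over control, 0.12 (95% interval -0.028 to 0.27, adjusted p = 0.16), was not called. It was called when proliferation B was left out (adjusted p = 0.0262) and in a fit of these groups alone (adjusted p = 0.0284).

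Col1a2 had 2903, 2776 and 2907 CPM in the TNF libraries, and 1964, 1901 and 1932 CPM in the Fbxl2 siRNA libraries. It had 2425, 2474 and 2426 CPM in the control libraries, and 1401, 1130.0 and 1275 CPM in the proliferation libraries. The order was that of Col1a1, again with no overlap between groups. Over control, Col1a2 rose with TNF (log2 0.23, SE 0.058, adjusted p = 0.00225), and fell with Fbxl2 siRNA (log2 -0.34, SE 0.058, adjusted p = 4e-05). Differentiation raised it (log2 0.94, SE 0.059, adjusted p = 6.76e-12). Per kilobase of exon, Col1a1 averaged 300.4 ± 7.66 CPM in TNF, 185 ± 6.83 in Fbxl2 siRNA, 276 ± 4.59 in control and 75.2 ± 10.8 in proliferation libraries (SD, n = 3).

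Col3a1 encodes type III collagen, a homotrimer of reticular fibres that mixes with type I. It had 4024, 3767 and 4029 CPM in the TNF libraries, and 8318, 7844 and 8407 CPM in the Fbxl2 siRNA libraries. It had 5984, 5963 and 5947 CPM in the control libraries, and 3347, 2683 and 3065 CPM in the proliferation libraries. Fbxl2 siRNA libraries were highest, and all groups stood apart. It was 1.37-fold higher with the siRNA than in control cells (log2 0.46, SE 0.062, adjusted p = 1.92e-06), and 1.51-fold lower with TNF (log2 -0.60, SE 0.062, adjusted p = 5.55e-08). TNF lay below Fbxl2 siRNA (log2 -1.06, SE 0.063, adjusted p = 6.7e-12) and differentiation raised it (log2 0.98, SE 0.062, adjusted p = 1.02e-11). Per kilobase of exon it ranked first of all chains in each group, at 401 ± 15.3 CPM in TNF, 834 ± 30.8 in Fbxl2 siRNA, 608 ± 1.87 in control and 309 ± 33.9 in proliferation libraries.

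Type V collagen starts and limits the growth of type I fibrils. Col5a1 had 1156, 1025 and 1077 CPM in the TNF libraries, and 779.9, 719.9 and 741 CPM in the Fbxl2 siRNA libraries. It had 1106, 1116 and 1087 CPM in the control libraries, and 442, 351 and 401 CPM in the proliferation libraries. TNF and control overlapped, both above Fbxl2 siRNA and proliferation. Col5a1 fell with the siRNA (log2 -0.56, SE 0.065, adjusted p = 2.65e-07), and rose on differentiation (log2 1.47, SE 0.066, adjusted p = 5.37e-14). With TNF its log2 fold change was -0.023 (95% interval -0.16 to 0.11, adjusted p = 0.789), which was not called. Col5a2 had 1882, 1814 and 1901 CPM in the TNF libraries, and 1251, 1157 and 1212 CPM in the Fbxl2 siRNA libraries. It had 1588, 1584 and 1575 CPM in the control libraries, and 856, 744 and 801 CPM in the proliferation libraries. For Col5a2 no groups overlapped. TNF raised it over control (log2 0.24, SE 0.051, adjusted p = 0.000485), the siRNA lowered it (log2 -0.39, SE 0.051, adjusted p = 1.22e-06), and differentiation raised it (log2 0.98, SE 0.052, adjusted p = 3.95e-13).

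Col5a3 encodes a less widespread type V chain. It had 396, 393 and 394 CPM in the TNF libraries, and 261, 237 and 255 CPM in the Fbxl2 siRNA libraries. It had 153, 154 and 157 CPM in the control libraries, and 118, 97.6 and 112 CPM in the proliferation libraries. The 4 groups formed 4 separate steps, with TNF at the top. It was 2.55-fold higher in TNF than in control cells (log2 1.35, SE 0.056, adjusted p = 3.16e-14), and 1.62-fold higher in Fbxl2 siRNA than in control cells (log2 0.70, SE 0.056, adjusted p = 1.19e-09). TNF also exceeded Fbxl2 siRNA (log2 0.65, SE 0.055, adjusted p = 2.29e-09), and control exceeded proliferation (log2 0.50, SE 0.057, adjusted p = 8.41e-08). Its partners Col5a1 and Col5a2 fell with the siRNA, so the 3 type V chains did not move alike.

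The minor fibrillar chains were present at low levels. Col11a1, whose product joins type V chains outside cartilage, had 10.2, 10.00 and 9.43 CPM in the TNF libraries, and 2.10, 2.04 and 1.89 CPM in the Fbxl2 siRNA libraries. It had 6.20, 5.85 and 6.26 CPM in the control libraries, and 0.921, 0.596 and 0.723 CPM in the proliferation libraries. The groups did not overlap. Col11a1 rose with TNF (log2 0.69, SE 0.094, adjusted p = 2.55e-06), fell with the siRNA (log2 -1.60, SE 0.12, adjusted p = 3.51e-10), and rose on differentiation (log2 3.01, SE 0.14, adjusted p = 7.46e-14). Col27a1, a fibrillar chain best known from cartilage, had 4.41, 4.82 and 4.68 CPM in the TNF libraries, and 2.13, 1.67 and 1.93 CPM in the Fbxl2 siRNA libraries. It had 3.57, 3.76 and 3.70 CPM in the control libraries, and 0.822, 0.782 and 0.756 CPM in the proliferation libraries. Its order of groups was that of Col11a1. The siRNA lowered Col27a1 (log2 -0.94, SE 0.14, adjusted p = 3.99e-06) and differentiation raised it (log2 2.22, SE 0.16, adjusted p = 5.8e-11). Its rise with TNF (log2 0.33, SE 0.12, adjusted p = 0.0217) lost its call without control A (adjusted p = 0.0723), TNF B (0.0662) or TNF C (0.0559), by DESeq2 (0.114), with library totals alone (0.0531) and with no filter (0.0534).

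Col24a1, a fibrillar chain known from developing bone, had 1.60, 1.77 and 1.59 CPM in the TNF libraries, and 1.81, 1.29 and 1.29 CPM in the Fbxl2 siRNA libraries. It had 2.16, 3.17 and 2.88 CPM in the control libraries, and 0.395, 0.484 and 0.329 CPM in the proliferation libraries. Control libraries were highest and proliferation lowest, while TNF and Fbxl2 siRNA overlapped. It was lower than in control cells with TNF (log2 -0.72, SE 0.18, adjusted p = 0.00195) and with the siRNA (log2 -0.89, SE 0.18, adjusted p = 0.000279). Differentiation raised it (log2 2.75, SE 0.23, adjusted p = 1.06e-09). Col11a2, another type XI chain, had 1.60, 2.87 and 2.37 CPM in the TNF libraries, and 2.66, 2.49 and 2.65 CPM in the Fbxl2 siRNA libraries. It had 2.70, 2.65 and 2.27 CPM in the control libraries, and 0.526, 0.335 and 0.329 CPM in the proliferation libraries. Only the proliferation libraries stood apart among these 4 groups, and Col11a2 rose on differentiation (log2 2.66, SE 0.25, adjusted p = 4.89e-09). Over control its log2 fold change was -0.17 (95% interval -0.55 to 0.21, adjusted p = 0.452) with TNF and 0.03 (95% interval -0.34 to 0.40, adjusted p = 0.891) with the siRNA, neither called.

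Col4a1 and Col4a2 encode the chains of the most widespread type IV collagen of basement membranes, the sheet that surrounds each muscle fibre. The genes lie head to head on chromosome 8 of GRCm38 (mm10), Col4a1 at chr8:11198423-11312826 on the minus strand and Col4a2 at chr8:11312805-11449287 on the plus strand. Their annotated 5′ ends overlap by 22 bases at chr8:11312805-11312826, shown in capitals on the plus strand because both transcripts start within them.
Col4a1 and Col4a2 shared 5′ ends: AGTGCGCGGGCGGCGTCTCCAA

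Col4a1 had 554, 494 and 512 CPM in the TNF libraries, and 911, 792 and 886 CPM in the Fbxl2 siRNA libraries. It had 948, 945 and 918 CPM in the control libraries, and 338, 278 and 325 CPM in the proliferation libraries. All groups stood apart for Col4a1, with control highest. Col4a2 had 398, 346 and 364 CPM in the TNF libraries, and 567, 489 and 544 CPM in the Fbxl2 siRNA libraries. It had 629, 630.4 and 619 CPM in the control libraries, and 227, 186 and 217 CPM in the proliferation libraries. In both genes the order was control, Fbxl2 siRNA, TNF and proliferation from high to low, with no overlap between groups. TNF lowered Col4a1 (log2 -0.85, SE 0.066, adjusted p = 1.14e-09) and Col4a2 (log2 -0.76, SE 0.068, adjusted p = 1.33e-08). The siRNA lowered Col4a2 (log2 -0.23, SE 0.068, adjusted p = 0.00569), whereas for Col4a1 the value of -0.12 (95% interval -0.26 to 0.019, adjusted p = 0.121) was not called. That of Col4a1 was called without proliferation B (adjusted p = 0.0423), with no filter (0.0498) or in a fit of these groups alone (0.0164). Differentiation raised Col4a1 (log2 1.58, SE 0.067, adjusted p = 3.14e-14) and Col4a2 (log2 1.58, SE 0.07, adjusted p = 1.1e-13). The log2 ratio of Col4a1 to Col4a2 counts within a library averaged 0.49 ± 0.019 in TNF, 0.70 ± 0.0092 in Fbxl2 siRNA, 0.58 ± 0.013 in control and 0.58 ± 0.0044 in proliferation libraries (SD, n = 3). The TNF libraries lay below and the Fbxl2 siRNA libraries above the control and proliferation libraries, which overlapped. As a linear ratio it stayed between 1.39 and 1.63 in the 12 libraries.

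Col4a5 and Col4a6 encode type IV chains of more restricted basement membranes and lie head to head on the X chromosome, 1308 bases apart. Col4a5 had 87.3, 85.04 and 86.5 CPM in the TNF libraries, and 90.2, 90.5 and 90.8 CPM in the Fbxl2 siRNA libraries. It had 83.8, 80.2 and 81.4 CPM in the control libraries, and 41.2, 31.9 and 35.6 CPM in the proliferation libraries. The 3 groups at 48 h lay within a narrow range above proliferation. Differentiation raised Col4a5 (log2 1.17, SE 0.063, adjusted p = 5.44e-13), and the log2 fold change with TNF was 0.077 (95% interval -0.047 to 0.20, adjusted p = 0.29). Its small rise with the siRNA (log2 0.15, SE 0.059, adjusted p = 0.0376) lost its call when any single Fbxl2 siRNA library, control B or C, TNF B or proliferation C was left out, with adjusted p values up to 0.13, by DESeq2 (0.107), with RLE scaling (0.0908), with library totals alone (0.0972) and with no filter (0.0979). Col4a6 had 0.416, 0.478 and 0.354 CPM in the TNF libraries, and 0.817, 0.545 and 0.681 CPM in the Fbxl2 siRNA libraries. It had 0.360, 0.383 and 0.575 CPM in the control libraries, and 0.230, 0.223 and 0.296 CPM in the proliferation libraries. These levels are near the counting floor. Col4a6 was called higher in control than in proliferation libraries (log2 0.78, SE 0.35, adjusted p = 0.0496), and lower in TNF than in Fbxl2 siRNA libraries (log2 -0.70, SE 0.29, adjusted p = 0.0451). Leaving out single libraries ended these calls in all cases but control A and Fbxl2 siRNA B for differentiation, up to an adjusted p of 0.226, and but control C and Fbxl2 siRNA B for the treatments, up to 0.171. Both calls were also lost by DESeq2 (adjusted p = 0.149 and 0.197), with no filter (0.0675 and 0.0754), with a filter at 10 summed counts (0.0613 and 0.0561) and in fits of the groups compared alone (0.0568 and 0.056). Its value over control with the siRNA, 0.64 (95% interval 0.034 to 1.24, adjusted p = 0.0602), was called without control C (adjusted p = 0.032) or Fbxl2 siRNA B (0.0402).

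Col8a1 and Col8a2 encode the short chains of type VIII collagen, which forms lattices under endothelium and in vessel walls. Col8a2, at chr4:126286793-126314330 on the plus strand, had 31.03, 24.2 and 26.4 CPM in the TNF libraries, and 0.675, 0.306 and 0.643 CPM in the Fbxl2 siRNA libraries. It had 21.3, 19.5 and 19.4 CPM in the control libraries, and 0.559, 0.931 and 0.592 CPM in the proliferation libraries. Fbxl2 siRNA and proliferation libraries overlapped near the floor, far below control, and TNF lay above control. Col8a2 was 37.2-fold lower in Fbxl2 siRNA than in control cells (log2 -5.22, SE 0.17, adjusted p = 6.06e-15). Control exceeded proliferation (log2 4.87, SE 0.16, adjusted p = 6.25e-16) and TNF exceeded control (log2 0.44, SE 0.092, adjusted p = 0.000407).

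Col8a1, at chr16:57624258-57754737 on the minus strand, had 595, 513 and 542 CPM in the TNF libraries, and 182, 174 and 167 CPM in the Fbxl2 siRNA libraries. It had 246, 231 and 236 CPM in the control libraries, and 119, 120.3 and 119 CPM in the proliferation libraries. Here the groups formed 4 steps, with TNF at the top. Col8a1 was 2.31-fold higher with TNF than in control cells (log2 1.21, SE 0.052, adjusted p = 5.27e-14). The siRNA lowered it (log2 -0.45, SE 0.053, adjusted p = 2.8e-07), and differentiation raised it (log2 0.99, SE 0.053, adjusted p = 5.65e-13). The log2 ratio of Col8a1 to Col8a2 counts averaged 4.34 ± 0.074 in TNF, 8.42 ± 0.64 in Fbxl2 siRNA, 3.57 ± 0.036 in control and 7.47 ± 0.40 in proliferation libraries. The ratio was higher in Fbxl2 siRNA and proliferation libraries, where Col8a2 was near the floor, than in TNF and control libraries.

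Col10a1, the type X chain of hypertrophic cartilage, was near the floor. It had 0.288, 0.589 and 0.354 CPM in the TNF libraries, and 0.107, 0.102 and 0.227 CPM in the Fbxl2 siRNA libraries. It had 0.629, 0.348 and 0.611 CPM in the control libraries, and 0.263, 0.447 and 0.230 CPM in the proliferation libraries. Fbxl2 siRNA libraries lay below all others, by little in the case of proliferation. With 3, 3 and 6 counts, none of them helped Col10a1 to pass the low-count filter. Calls against these libraries were thus favoured by the filter. Col10a1 fell with the siRNA (log2 -1.87, SE 0.45, adjusted p = 0.00122) relative to control. TNF exceeded Fbxl2 siRNA (log2 1.47, SE 0.48, adjusted p = 0.0123), a call lost without TNF B (adjusted p = 0.0777) or Fbxl2 siRNA B (0.0547). The differentiation value, 0.78 (95% interval -0.0092 to 1.57, adjusted p = 0.0668), was not called, but was without proliferation B (adjusted p = 0.0287) or control B (0.0285).

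**Figure D3:**
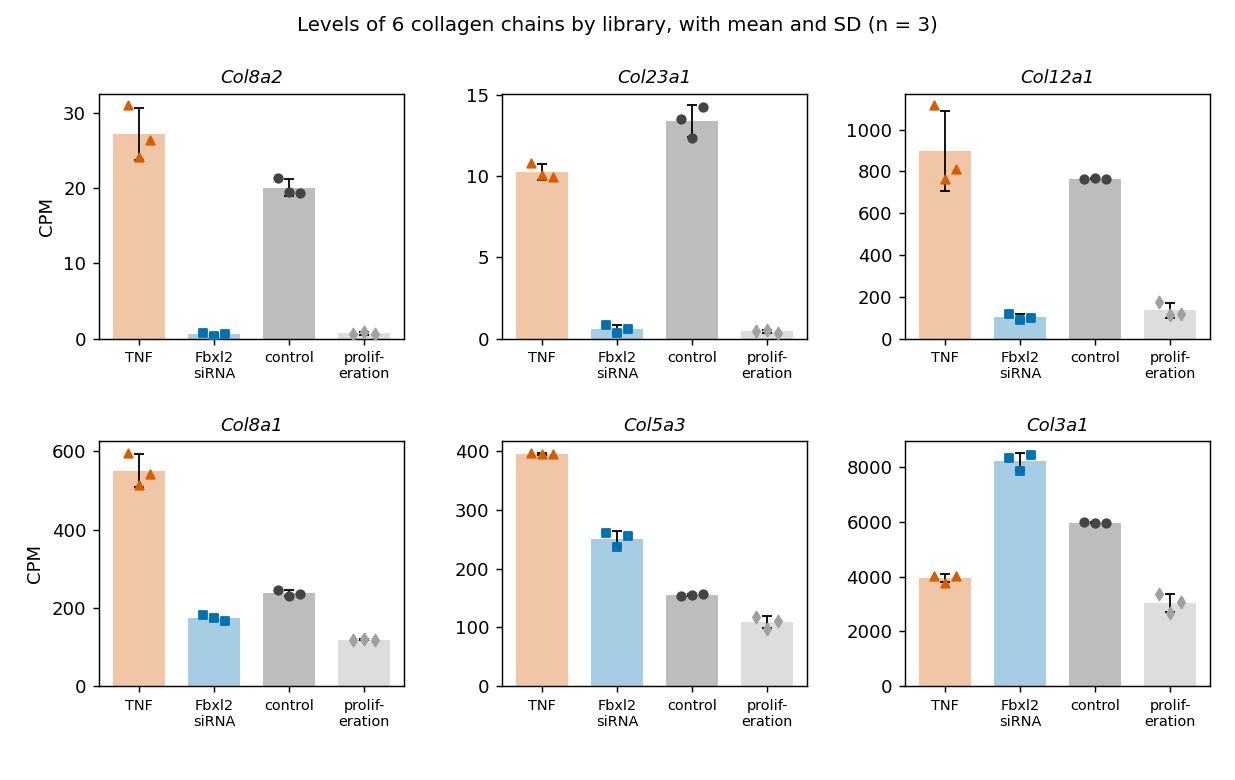
Levels of 6 chains in CPM, with a point for each library and bars for the mean and SD of 3 libraries. Col8a2, Col23a1 and Col12a1 are low in Fbxl2 siRNA and proliferation, Col8a1 and Col5a3 are highest in TNF, and Col3a1 is highest in Fbxl2 siRNA.

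Type VI collagen, the beaded filament around muscle fibres, is built from Col6a1, Col6a2 and another chain, most often Col6a3. Col6a1 had 583, 475 and 546 CPM in the TNF libraries, and 380.3, 340.2 and 369.8 CPM in the Fbxl2 siRNA libraries. It had 655, 632 and 608 CPM in the control libraries, and 262, 204 and 221 CPM in the proliferation libraries. No groups of Col6a1 overlapped. Col6a2 had 179, 139.6 and 167 CPM in the TNF libraries, and 149, 142 and 148 CPM in the Fbxl2 siRNA libraries. It had 309.9, 283 and 272 CPM in the control libraries, and 94.3, 71.6 and 79.2 CPM in the proliferation libraries. Control libraries were highest and proliferation lowest for both, and TNF overlapped Fbxl2 siRNA for Col6a2 only. The siRNA lowered Col6a1 (log2 -0.80, SE 0.087, adjusted p = 1.58e-06) and Col6a2 (log2 -0.98, SE 0.10, adjusted p = 3.95e-06). TNF lowered Col6a2 (log2 -0.83, SE 0.10, adjusted p = 2.04e-05). Its effect on Col6a1 (log2 -0.24, SE 0.086, adjusted p = 0.029) lost its call without control A (adjusted p = 0.0899), control B (0.0578), TNF B (0.102) or TNF C (0.0524). For Col6a2 the contrast of TNF over Fbxl2 siRNA, 0.15 (95% interval -0.075 to 0.37, adjusted p = 0.228), was called without TNF B (adjusted p = 0.0208). Differentiation raised Col6a1 (log2 1.46, SE 0.088, adjusted p = 9.66e-10) and Col6a2 (log2 1.82, SE 0.11, adjusted p = 7.28e-09).

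Col6a3 had 395, 342 and 359 CPM in the TNF libraries, and 775, 759 and 754 CPM in the Fbxl2 siRNA libraries. It had 386, 412 and 407 CPM in the control libraries, and 667, 467 and 571 CPM in the proliferation libraries. Fbxl2 siRNA was highest and proliferation next, while TNF and control overlapped below them. Col6a3 thus moved against Col6a1 and Col6a2, with a rise with the siRNA (log2 0.93, SE 0.099, adjusted p = 3.32e-06) and a fall on differentiation (log2 -0.50, SE 0.099, adjusted p = 0.000461). With TNF its log2 fold change was -0.14 (95% interval -0.35 to 0.078, adjusted p = 0.267). That value was called without proliferation B (adjusted p = 0.0419) or in a fit of these groups alone (0.00694). The log2 ratio of Col6a2 to Col6a3 counts averaged -1.18 ± 0.10 in TNF, -2.38 ± 0.03 in Fbxl2 siRNA, -0.48 ± 0.14 in control and -2.79 ± 0.077 in proliferation libraries. Col6a5, an alternative to Col6a3, had 0.288, 0.257 and 0.248 CPM in the TNF libraries, and 0.142, 0.272 and 0.265 CPM in the Fbxl2 siRNA libraries. It had 0.360, 0.348 and 0.539 CPM in the control libraries, and 0.0329, 0 and 0 CPM in the proliferation libraries. Col6a5 passed the low-count filter only through its control libraries, so a call in their favour was likely from the start. Its proliferation libraries held 1 count in all, against 37 in control libraries, a ratio of 36.1 (95% counting interval 6.09 to 1464), so its called rise on differentiation (adjusted p = 3.67e-06) has no firm size. Over control its log2 fold change was -0.63 (95% interval -1.41 to 0.16, adjusted p = 0.167) with TNF and -0.85 (95% interval -1.67 to -0.036, adjusted p = 0.0629) with the siRNA.

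Fibril-associated collagens bind fibril surfaces without forming fibrils. Col12a1, whose human mutations cause a muscle and joint disorder, had 1116, 764 and 814 CPM in the TNF libraries, and 118, 88.1 and 100.3 CPM in the Fbxl2 siRNA libraries. It had 762, 771 and 765 CPM in the control libraries, and 177, 112 and 119 CPM in the proliferation libraries. Fbxl2 siRNA overlapped proliferation, TNF overlapped control, and TNF A stood above all other libraries. Col12a1 was 7.50-fold lower with the siRNA than in control cells (log2 -2.91, SE 0.22, adjusted p = 3.37e-06), and control exceeded proliferation (log2 2.49, SE 0.22, adjusted p = 4.9e-06). With TNF the value was 0.23 (95% interval -0.23 to 0.69, adjusted p = 0.372), not called. Per kilobase of exon Col12a1 ranked 16 among the chains in Fbxl2 siRNA and 9 in control libraries.

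Col14a1, a fibril-associated chain of tendon and skin, had 2.75, 2.69 and 2.27 CPM in the TNF libraries, and 3.52, 2.996 and 2.53 CPM in the Fbxl2 siRNA libraries. It had 3.63, 3.27 and 3.96 CPM in the control libraries, and 1.61, 1.04 and 1.38 CPM in the proliferation libraries. TNF lay below control and above proliferation. Differentiation raised Col14a1 (log2 1.41, SE 0.17, adjusted p = 2.49e-07). Its fall with TNF (log2 -0.49, SE 0.16, adjusted p = 0.0112) lost its call without TNF C (adjusted p = 0.0594), and the siRNA value, -0.26 (95% interval -0.58 to 0.06, adjusted p = 0.145), was not called. Col16a1 had 68.3, 66.3 and 69.6 CPM in the TNF libraries, and 78.2, 71.2 and 75.3 CPM in the Fbxl2 siRNA libraries. It had 70.5, 74.3 and 71.5 CPM in the control libraries, and 49.8, 38.9 and 44.4 CPM in the proliferation libraries. Levels of Col16a1, a chain found at fibrils and beaded filaments, were close in the 3 groups at 48 h and lower in proliferation libraries. It rose on differentiation (log2 0.70, SE 0.065, adjusted p = 3.79e-09) and its log2 fold change over control was -0.083 (95% interval -0.21 to 0.049, adjusted p = 0.281) with TNF and 0.055 (95% interval -0.076 to 0.19, adjusted p = 0.456) with the siRNA. TNF over Fbxl2 siRNA gave -0.14 (95% interval -0.27 to -0.0063, adjusted p = 0.0654), which was called without proliferation A (adjusted p = 0.025), proliferation B (0.0145) or Fbxl2 siRNA B (0.0413), with upper-quartile scaling (0.0101), with library totals alone (0.0348) and in a fit of these groups alone (0.0188). The value of TNF over control was called in a fit of those groups alone (0.0196).

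Transmembrane collagens stay in the cell membrane until shed. Col23a1, at chr11:51289920-51583918 on the plus strand, had 10.8, 10.04 and 9.92 CPM in the TNF libraries, and 0.817, 0.340 and 0.605 CPM in the Fbxl2 siRNA libraries. It had 13.5, 12.4 and 14.3 CPM in the control libraries, and 0.461, 0.521 and 0.329 CPM in the proliferation libraries. Its Fbxl2 siRNA libraries overlapped the proliferation libraries, far below TNF and control. It was 22.8-fold lower with the siRNA than in control cells (log2 -4.51, SE 0.16, adjusted p = 7.23e-15). Control exceeded proliferation (log2 4.94, SE 0.17, adjusted p = 4.19e-16), and TNF lay under control (log2 -0.38, SE 0.099, adjusted p = 0.00246). Col25a1, needed in mouse muscle for motor nerves to enter, had 0.672, 0.441 and 0.709 CPM in the TNF libraries, and 0.107, 0.102 and 0.151 CPM in the Fbxl2 siRNA libraries. It had 0.479, 0.557 and 0.468 CPM in the control libraries, and 0.0329, 0.0745 and 0.0329 CPM in the proliferation libraries. Fbxl2 siRNA lay below TNF and control, which overlapped, and above proliferation. Col25a1 passed the low-count filter only through its TNF and control libraries, so calls in their favour were likely from the start. The siRNA lowered Col25a1 (log2 -2.03, SE 0.40, adjusted p = 0.000181), differentiation raised it (log2 3.34, SE 0.49, adjusted p = 3.01e-06), and the log2 fold change with TNF was 0.28 (95% interval -0.31 to 0.87, adjusted p = 0.418). Its Fbxl2 siRNA libraries held 10 counts in all and its proliferation libraries 4. The fall and the rise thus have no firm size.

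Col17a1, the transmembrane collagen of epithelial hemidesmosomes, had 1.12, 1.10 and 1.24 CPM in the TNF libraries, and 3.27, 4.22 and 3.03 CPM in the Fbxl2 siRNA libraries. It had 2.01, 2.33 and 1.87 CPM in the control libraries, and 3.72, 3.72 and 4.64 CPM in the proliferation libraries. TNF was lowest, control next, and Fbxl2 siRNA overlapped proliferation. Col17a1 fell with TNF (log2 -0.84, SE 0.19, adjusted p = 0.000837), rose with the siRNA (log2 0.76, SE 0.16, adjusted p = 0.000304), and fell on differentiation (log2 -0.96, SE 0.16, adjusted p = 1.13e-05). Col18a1, a basement membrane collagen and the source of the fragment endostatin, had 359.6, 407 and 389 CPM in the TNF libraries, and 473, 514 and 465 CPM in the Fbxl2 siRNA libraries. It had 256, 284 and 292 CPM in the control libraries, and 524, 458 and 509 CPM in the proliferation libraries. Control libraries were lowest of all. Col18a1 fell on differentiation (log2 -0.84, SE 0.062, adjusted p = 1.06e-10) and was higher than in control cells with TNF (log2 0.47, SE 0.062, adjusted p = 1.54e-06) and with the siRNA (log2 0.80, SE 0.062, adjusted p = 6.38e-10). Col18a1 ranked 5 per kilobase in proliferation libraries and 10 in control libraries.

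Col7a1, the chain of the anchoring fibrils of skin, had 7.42, 9.16 and 8.82 CPM in the TNF libraries, and 7.14, 5.21 and 5.45 CPM in the Fbxl2 siRNA libraries. It had 2.91, 3.94 and 3.78 CPM in the control libraries, and 11.6, 8.67 and 9.14 CPM in the proliferation libraries. Control was again lowest, and TNF overlapped proliferation. Col7a1 was higher than in control cells with TNF (log2 1.26, SE 0.15, adjusted p = 6.69e-07) and with the siRNA (log2 0.75, SE 0.16, adjusted p = 0.00037), and fell on differentiation (log2 -1.48, SE 0.15, adjusted p = 2.28e-08). Col28a1, a chain of peripheral nerve in mouse, had 0.448, 0.515 and 0.425 CPM in the TNF libraries, and 0.426, 0.579 and 0.227 CPM in the Fbxl2 siRNA libraries. It had 0.599, 0.279 and 0.396 CPM in the control libraries, and 0.164, 0.0372 and 0.0987 CPM in the proliferation libraries. The 3 groups at 48 h overlapped above proliferation, whose libraries held 9 counts in all, so the size of its rise is not firm. It rose on differentiation (log2 2.03, SE 0.51, adjusted p = 0.00116), and its log2 fold change over control was 0.094 (95% interval -0.67 to 0.86, adjusted p = 0.848) with TNF and -0.055 (95% interval -0.84 to 0.73, adjusted p = 0.908) with the siRNA.

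The 14 chains that did not pass the filter had few counts. Over the 12 libraries Col6a4 had 70 counts, Col9a3 64, Col19a1 59, Col26a1 45, Col4a4 42, Col15a1 34, Col4a3 33 and Col20a1 27. Fewer than 10 counts were found for Col13a1 (9), Col22a1 (5), Col2a1 (4), Col6a6 (1), Col9a1 (0) and Col9a2 (0). The last group includes Col2a1, the main chain of cartilage, Col13a1 of the neuromuscular junction and Col22a1 of the junction between muscle and tendon. These 6 chains lay under the limit of 10 summed counts set here for detection, and only Col9a1 and Col9a2 had no count at all. The other 8 were detected at too few counts to be tested.

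The ratio of partner chains differed between groups. A ratio of counts also carries the lengths of the transcripts, so it is compared between groups only, and with 3 libraries in each it was described without a test. For Col1a1 over Col1a2, the log2 ratio averaged -0.54 ± 0.0064 in TNF, -0.67 ± 0.034 in Fbxl2 siRNA, -0.43 ± 0.016 in control and -1.37 ± 0.054 in proliferation libraries. For Col5a1 over Col5a2, it was -0.78 ± 0.068 in TNF, -0.69 ± 0.015 in Fbxl2 siRNA, -0.52 ± 0.015 in control and -1.01 ± 0.066 in proliferation libraries, and for Col6a1 over Col6a2, 1.72 ± 0.037 in TNF, 1.31 ± 0.049 in Fbxl2 siRNA, 1.13 ± 0.046 in control and 1.49 ± 0.019 in proliferation libraries. Among these 3 pairs the groups overlapped only for TNF and Fbxl2 siRNA in Col5a1 over Col5a2. The ratio of Col11a1 to Col5a1 averaged -6.78 ± 0.089 in TNF, -8.54 ± 0.076 in Fbxl2 siRNA, -7.50 ± 0.069 in control and -9.07 ± 0.15 in proliferation libraries. For Col4a5 over Col4a6, which rests on few Col4a6 counts, it averaged 7.71 ± 0.23 in TNF, 7.07 ± 0.30 in Fbxl2 siRNA, 7.57 ± 0.38 in control and 7.19 ± 0.29 in proliferation libraries, and control overlapped every other group. Col3a1, of type III, over Col1a1, of type I, averaged 1.00 ± 0.02 in TNF, 2.75 ± 0.059 in Fbxl2 siRNA, 1.72 ± 0.022 in control and 2.62 ± 0.049 in proliferation libraries. The Col3a1 to Col1a1 ratio was thus lowest in TNF libraries, next in control libraries, and higher in Fbxl2 siRNA and proliferation libraries. It does not stand for type I as a whole, since Col1a1 over Col1a2 also differed between groups.

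**Figure D4:**
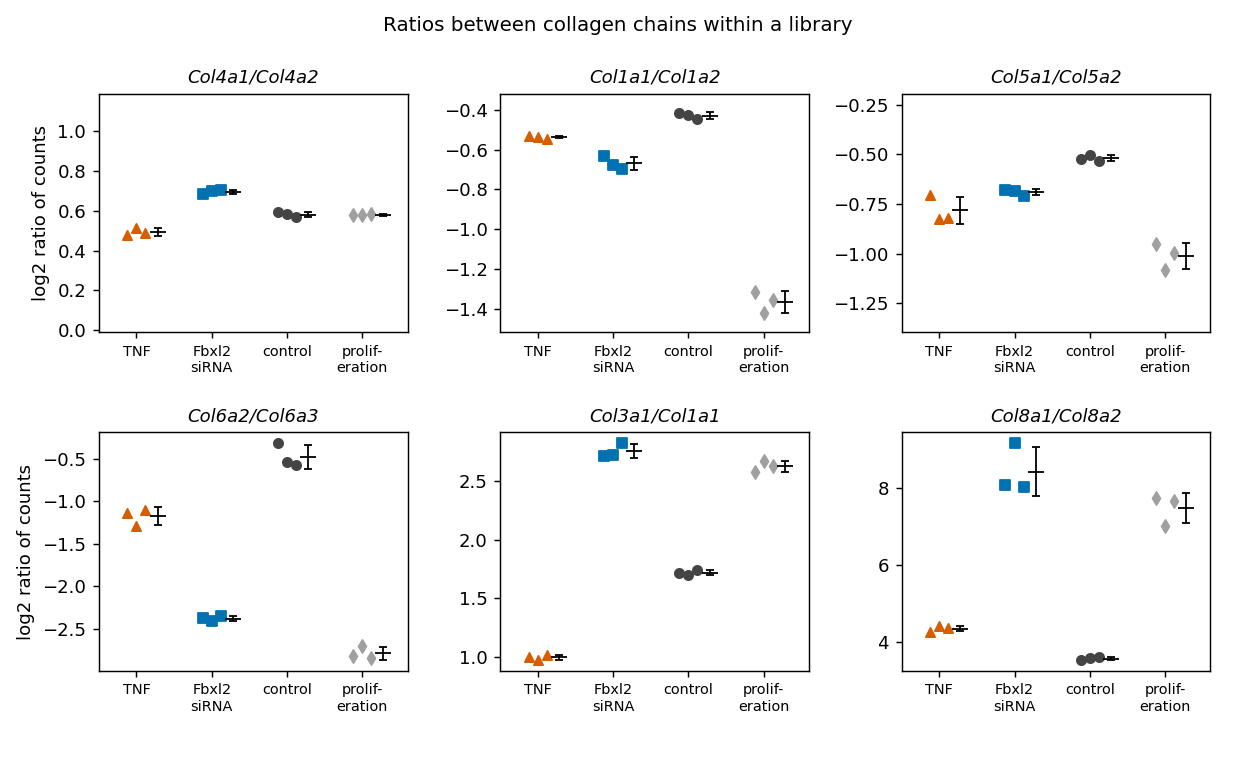
Log2 ratio of the counts of paired chains in each library, with the mean and SD of 3 libraries beside the points. Each panel has its own axis, wide enough for its own values. The Col4a1 to Col4a2 panel spans the narrowest range of values and the Col8a1 to Col8a2 panel the widest.

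The make-up of the collagen counts also differed between groups. Col3a1 took 24.4% of them in TNF, 47.7% in Fbxl2 siRNA, 34.2% in control and 36.3% in proliferation libraries. Col1a1 took 12.2%, 7.08%, 10.4% and 5.89% in the same order of groups. Col12a1 took 5.54%, 0.594%, 4.39% and 1.61%. Col18a1 took 2.39%, 2.83%, 1.59% and 5.96%.

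**Figure D5:**
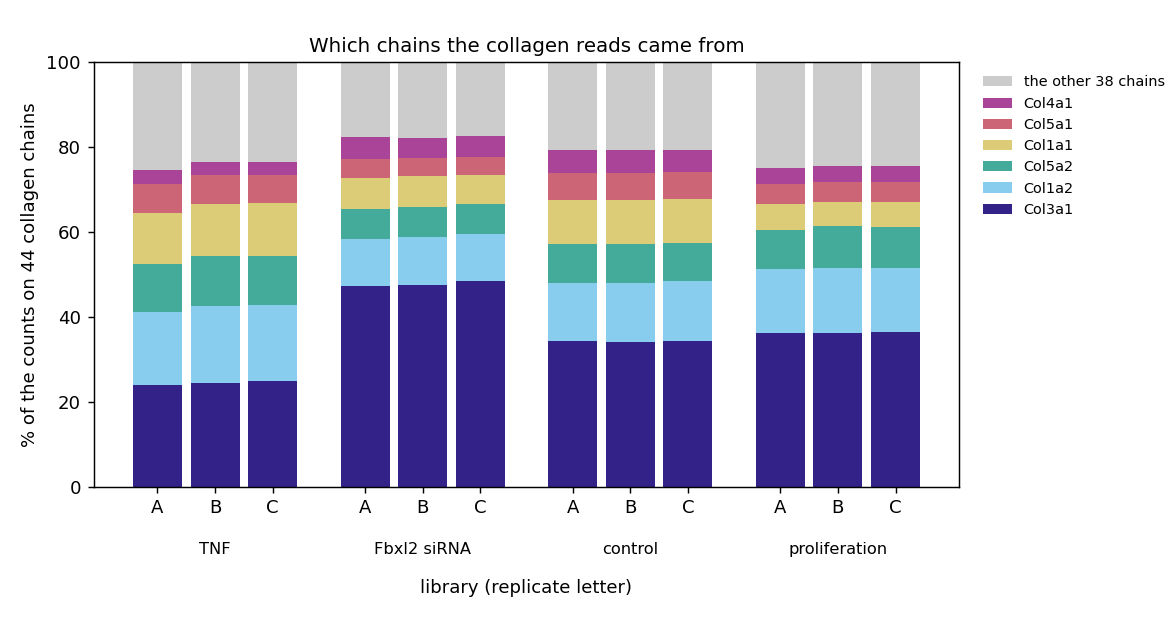
Share of the counts on the 44 collagen chains that fell on Col3a1, Col1a2, Col5a2, Col1a1, Col5a1, Col4a1 and all remaining chains, in percent, a bar for each library. The Col3a1 part is largest in the Fbxl2 siRNA libraries and smallest in the TNF libraries.

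Neighbouring chain genes did not all move together. Col3a1 and Col5a2 lie tail to tail on chromosome 1, 24614 bases apart, and were called in opposite directions, with TNF (-0.60 and 0.24) and with the siRNA (0.46 and -0.39). Col6a2 and Col6a1 lie on the same strand of chromosome 10, 85161 bases apart, and were called in the same direction in the 3 comparisons with or of control. Of the exon bases of Col5a1, 2.50% overlap another annotated gene, and of those of Col3a1 1.44%. Since use of strand in counting is not given in the sources used here, reads there cannot be assigned.

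Promoter sequences were read from RefSeq for GRCm38.p6, whose table held 35 of the 44 chains. The 250 bases upstream of the RefSeq start are printed 5′ to 3′ for those in the table with the 2 largest called falls with the siRNA (Col8a2, Col23a1) and the 3 largest called rises with TNF (Col5a3, Col7a1, Col8a1). For Col8a2 the last base printed is the first base of the gene at the locus given above. Capitals mark GC boxes, the letters GGGCGG on either strand, to which SP1, the factor of the series title, can bind.
Col8a2, chr4:126286544-126286793, plus strand: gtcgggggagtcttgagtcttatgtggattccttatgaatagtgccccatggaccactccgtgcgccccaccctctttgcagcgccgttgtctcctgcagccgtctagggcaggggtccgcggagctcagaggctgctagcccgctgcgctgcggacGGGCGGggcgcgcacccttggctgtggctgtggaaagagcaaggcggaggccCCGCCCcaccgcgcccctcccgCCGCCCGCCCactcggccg
Col23a1, chr11:51289670-51289919, plus strand: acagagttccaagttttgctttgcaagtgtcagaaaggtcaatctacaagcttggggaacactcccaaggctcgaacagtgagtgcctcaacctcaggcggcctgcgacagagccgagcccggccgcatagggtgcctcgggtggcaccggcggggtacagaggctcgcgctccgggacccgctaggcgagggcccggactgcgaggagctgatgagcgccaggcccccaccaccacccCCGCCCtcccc
Col5a3, chr9:20815068-20815317, minus strand: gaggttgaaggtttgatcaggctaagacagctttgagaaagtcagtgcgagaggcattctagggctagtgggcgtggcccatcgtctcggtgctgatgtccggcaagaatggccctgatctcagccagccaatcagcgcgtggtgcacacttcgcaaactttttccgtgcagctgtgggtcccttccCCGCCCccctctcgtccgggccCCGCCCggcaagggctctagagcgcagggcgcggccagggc
Col7a1, chr9:108953336-108953585, plus strand: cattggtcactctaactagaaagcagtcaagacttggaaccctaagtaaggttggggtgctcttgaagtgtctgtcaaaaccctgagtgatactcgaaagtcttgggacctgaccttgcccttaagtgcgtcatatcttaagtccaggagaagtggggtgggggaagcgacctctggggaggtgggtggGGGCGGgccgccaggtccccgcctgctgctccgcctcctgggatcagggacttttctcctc
Col8a1, chr16:57754738-57754987, minus strand: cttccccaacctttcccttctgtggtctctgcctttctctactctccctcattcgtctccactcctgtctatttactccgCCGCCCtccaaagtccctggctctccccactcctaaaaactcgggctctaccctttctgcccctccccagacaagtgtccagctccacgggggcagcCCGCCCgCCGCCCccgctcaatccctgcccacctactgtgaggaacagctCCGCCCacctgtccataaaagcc

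A GC box lay in the 250 base window of 18 of the 26 tested chains in the table, and in 32.7% of 32851 promoters of all genes. CANNTG, the E-box of myogenic factors, was found in 13 of the 26 chains and 66.2% of all promoters, and CCAAT in 11 and 33.8%. TATAAA was found in 4 chains and 12.4%. TGANTCA, an AP-1 site, lay in 1 chain and 6.75%, the NF-kB consensus in 1 (Col27a1) and 3.90%, and the CArG box in 0 and 1.47%. Both strands were searched and overlapping matches were kept. The chains were counted by gene, with a match in any of their windows, and had passed the expression filter. The background was counted by promoter and includes genes not expressed here. The shares are therefore not of like sets, and enrichment was not tested. A match is a run of letters and not a shown binding site, and chains absent from the table, such as Col1a1 and Col12a1, were not searched.

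Genes that make, secrete, bind and break down collagen were followed as 5 lists. With TNF, 13 of 17 tested modification and folding genes were called higher than in control cells and 1 lower, with a list median log2 fold change of 0.30, against 31.0% and 23.6% of all tested genes and a median of 0.029. Among them rose P4hb, a subunit of prolyl 4-hydroxylase (log2 0.71, SE 0.048, adjusted p = 6.6e-11), and P4ha2, a catalytic subunit of the same enzyme (log2 0.53, SE 0.042, adjusted p = 1.15e-09). Colgalt1, which adds galactose to hydroxylysine, rose as well (log2 0.53, SE 0.042, adjusted p = 1.11e-09). Of 12 secretion and trimming genes 4 rose and 0 fell, so the share that rose was near that of all tested genes. The 4 included Sec24d, a coat protein of export vesicles (log2 0.44, SE 0.048, adjusted p = 1.03e-07), and Pcolce, an enhancer of C-propeptide removal (log2 0.34, SE 0.049, adjusted p = 4.6e-06). Adamts14, an N-propeptide protease, rose too (log2 0.39, SE 0.065, adjusted p = 3.12e-05).

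Of 7 cross-linking genes 4 rose and 2 fell with TNF, against the same 31.0% and 23.6% of all tested genes. The lysyl oxidases Lox (log2 0.90, SE 0.056, adjusted p = 1.86e-11) and Loxl4 (log2 0.95, SE 0.093, adjusted p = 2.51e-08) rose, and the transglutaminase Tgm2 fell (log2 -0.92, SE 0.069, adjusted p = 1.69e-09). Of 8 receptors 1 rose and 4 fell. The kinase receptor Ddr1 (log2 -0.41, SE 0.055, adjusted p = 2.39e-06), the endocytic receptor Mrc2 (log2 -0.60, SE 0.077, adjusted p = 4.88e-06) and the integrin Itga11 (log2 -0.48, SE 0.10, adjusted p = 0.000872) fell. Of 16 degradation genes 6 rose and 6 fell, the rises again near the share of all tested genes. This list holds proteases together with inhibitors such as Timp2, so its counts give no direction of collagen breakdown. Mmp9, a gelatinase, averaged 86.5 ± 6.59 CPM in TNF, 0.872 ± 0.272 in Fbxl2 siRNA, 1.06 ± 0.362 in control and 0.247 ± 0.0911 in proliferation libraries, so that TNF stood far above control (log2 6.32, SE 0.13, adjusted p = 1.07e-18). The stromelysin Mmp10 rose (log2 2.64, SE 0.15, adjusted p = 4.61e-12), and the protease inhibitor Timp2 fell (log2 -0.92, SE 0.049, adjusted p = 1.54e-12).

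With the siRNA, the genes called higher and lower than in control cells numbered 8 and 5 of 17 for modification and folding, 1 and 7 of 12 for secretion and trimming, 3 and 2 of 7 for cross-linking, 1 and 5 of 8 for receptors and 5 and 7 of 16 for degradation, against 34.1% and 29.8% of all tested genes. In TNF over Fbxl2 siRNA the counts were 10 and 1, 10 and 1, 5 and 2, 5 and 2, and 9 and 6, against 29.9% and 30.6%. In control over proliferation they were 12 and 1, 8 and 1, 4 and 2, 6 and 2, and 12 and 4, against 38.4% and 38.9%.

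On differentiation the prolyl 3-hydroxylases P3h3 (log2 1.53, SE 0.06, adjusted p = 4.11e-15) and P3h1 (log2 0.64, SE 0.046, adjusted p = 5.74e-11) rose, as did Tmem38b, an ion channel of the endoplasmic reticulum (log2 0.83, SE 0.058, adjusted p = 4.04e-11). Of the secretion list, the collagen-binding protein Sparc (log2 1.12, SE 0.05, adjusted p = 2.59e-14) and the N-propeptide protease Adamts2 (log2 2.12, SE 0.081, adjusted p = 1.27e-13) rose, while Pcolce2 fell (log2 -2.23, SE 0.053, adjusted p = 3.58e-18). Of the cross-linking list, Tgm2 (log2 2.58, SE 0.075, adjusted p = 6.8e-16), Loxl1 (log2 1.34, SE 0.061, adjusted p = 3.95e-14) and Pxdn, a peroxidase that cross-links type IV collagen (log2 1.21, SE 0.055, adjusted p = 3.36e-14), rose. Among receptors, Itga11 (log2 5.23, SE 0.17, adjusted p = 9.31e-14), Ddr1 (log2 1.01, SE 0.056, adjusted p = 1e-12) and Mrc2 (log2 1.49, SE 0.079, adjusted p = 2.72e-11) rose. The proteases Mmp14 (log2 1.58, SE 0.052, adjusted p = 3.04e-16) and Mmp2 (log2 2.20, SE 0.075, adjusted p = 1.29e-14) rose together with their inhibitor Timp2 (log2 1.31, SE 0.049, adjusted p = 1.74e-15).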

How the data were processed

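The authors deposited whole-number read counts per gene symbol for the 12 libraries, with no normalization. The submitters' processing notes list mm10 as the build and CASAVA and DESeq2 as tools. No source used here gives the aligner, the annotation, the counting program or its strand setting. Per the labels' protocols, total RNA was made into libraries with an Illumina mRNA kit. The deposited tables of comparisons were not used.

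The analysis used edgeR 4.0.16 (limma 3.58.1, R 4.3.3). Of 21232 genes, 4354 had no count, and filterByExpr kept 12736. Libraries were scaled by TMM, and all 12 libraries entered a single robust quasi-likelihood fit of the 4 groups (8 residual degrees of freedom), with Benjamini-Hochberg adjustment and a threshold of 0.05. The standard error is the absolute log2 fold change over the square root of F. The fit was tested on simulated data. No replicates held identical values, and their counts differed by a chi-square of 1.60 to 21.3 per degree of freedom, so each was kept. The counting interval given for Col6a5 and the floors of 3 counts cover counting error only. The intervals of log2 fold changes were built from this standard error, so they also include library-to-library spread.

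Every tested chain was named with its values in each library, chains below the filter with their summed counts, and of each pathway list the 3 genes with the smallest p in TNF over control and in control over proliferation. Lengths and loci came from GENCODE M21 (GRCm38), where the exons of all transcripts of a gene were merged, so rare isoforms lower its level per kilobase. The members and lists were chosen with earlier results of these data known. Other scalings, filters, DESeq2 1.42.0, fits of 2 groups, a replicate block and left-out libraries were tried as alternatives.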

Additional observations from a re-analysis of the deposited data

How the results depend on the processing

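All 16 counts of calls stayed within 1.5 times their value under 23 alternatives. Chains called higher numbered 23 to 27 in control over proliferation, 6 to 10 in TNF over control, 6 to 9 in Fbxl2 siRNA over control and 14 to 16 in TNF over Fbxl2 siRNA. Those called lower numbered 4 throughout, 6 to 11, 16 to 18 and 6 to 9. Of 120 values, 92 were called, and 81 of these kept their call in every alternative. The 11 that did not were Col4a6 in 2 comparisons, Col4a5, Col10a1, Col7a1 and, in TNF over control, Col1a2, Col5a2, Col14a1, Col23a1, Col27a1 and Col6a1. None of the 92 called values changed direction in any alternative. Without all letter C libraries, the TNF calls of Col1a2, Col5a2 and Col23a1 were lost (adjusted p = 0.0938, 0.056 and 0.087), and Col7a1 in TNF over Fbxl2 siRNA lost its call without letter B or C (0.0708 and 0.0868), by the edgeR test with fewer libraries. The rise of Col6a5 on differentiation moved to a log2 fold change of 6.59 without proliferation A. Some uncalled log2 fold changes reversed, and the cause was not tested. With single libraries left out, values of TNF over control ranged from -0.13 to 0.45 for Col28a1, -0.20 to 0.16 for Col4a6, -0.37 to 0.043 for Col11a2 and -0.069 to 0.015 for Col5a1. Those of Fbxl2 siRNA over control ranged from -0.39 to 0.30 for Col28a1 and -0.049 to 0.080 for Col11a2, and those of TNF over Fbxl2 siRNA from -0.39 to 0.012 for Col11a2, -0.13 to 0.48 for Col28a1 and -0.019 to 0.39 for Col6a5. Leaving out a letter in every group gave, for TNF over control, -0.21 for Col28a1 and 0.026 for Col5a1 (B), 0.26 for Col4a6 (C) and 0.091 for Col11a2 (A). It gave -0.063 for Col11a2 (C) and 0.29 and 0.16 for Col28a1 (A and C) in Fbxl2 siRNA over control, and 0.031 for Col11a2 (A) and -0.067 for Col28a1 (C) in TNF over Fbxl2 siRNA. With no filter, Col11a2 in Fbxl2 siRNA over control gave -0.0017. Depth limits the chains under about 1 CPM.

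The replicate letters were not treated as pairs, since the labels state no pairing behind them. In 18 same-letter pairs of libraries from different groups, deviations from the group mean correlated at -0.0957 to 0.183. In 5 of these 18 pairs, the first library correlated better with its own letter than with the other letters of the second group. With a replicate block, chains called higher and lower numbered 24 and 4 in control over proliferation, 9 and 9 in TNF over control, 7 and 17 in Fbxl2 siRNA over control, and 16 and 7 in TNF over Fbxl2 siRNA. The block ended the calls of Col4a6 in control over proliferation (adjusted p = 0.0588) and in TNF over Fbxl2 siRNA (0.0543), and called Col4a1 in Fbxl2 siRNA over control (0.0357) and Col16a1 and Col6a2 in TNF over Fbxl2 siRNA (0.0489 and 0.0469). It changed no other call of a tested chain.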

Other observations

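Genes with a collagen-like name that are not chains were measured too, and were picked by the start of their symbol after the values were seen. Colq, which encodes the collagen tail of acetylcholinesterase at the neuromuscular junction, averaged 1.01 ± 0.143 CPM in TNF, 0.788 ± 0.104 in Fbxl2 siRNA, 2.35 ± 0.301 in control and 0.0687 ± 0.0333 in proliferation libraries (SD, n = 3). Colec12, a scavenger receptor with a collagen-like stalk, averaged 417 ± 36.6, 384 ± 24.6, 528 ± 9.23 and 103 ± 6.65 CPM in the same order of groups. Colec10, a secreted collectin, averaged 5.89 ± 0.992, 9.69 ± 1.91, 25.6 ± 1.54 and 1.95 ± 0.657 CPM. All 3 had their highest mean in control libraries and their lowest in proliferation libraries.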
